A study of Mus musculus with 12 samples.

Results

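The small ribosomal subunit processome is the large nucleolar particle in which the precursor of 18S ribosomal RNA is folded, modified and cut. The genes of its proteins were followed here through B-cell activation and differentiation. They were chosen by name, as 48 genes matched by Entrez ID out of 27179 genes in the count table, and all 48 passed the filter on low counts, with 254 to 29775 counts per gene and library. RNA-Seq was performed on 12 libraries of splenic B cells of male C57BL/6 mice aged 6 to 12 weeks, 2 biological replicates for each of 6 stages. Naive cells were untreated, sorted as B220+ IgM+ IgD-high cells without TCRβ. The activated cells received lipopolysaccharide (LPS) of Salmonella typhosa at 25 µg/ml, and those of 3, 10 and 33 h were sorted as CD69+ and undivided by their undiluted CellTrace Violet dye. On day 4 of LPS culture, expanded B cells were taken as CD22+ CD138- and plasmablasts, the dividing antibody-secreting cells, as CD22- CD138+. The day 4 cultures were seeded at a lower density than those of 3 to 33 h, so density cannot be told apart from stage in the comparison of 33 h with expanded cells.

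Small subunits begin on the nascent ribosomal RNA transcript. The UTP-A and UTP-B complexes bind its 5′ end first, the box C/D particle with U3 small nucleolar RNA (snoRNA) then base-pairs with it, and the Mpp10 complex, UTP-C, single proteins and RNA helicases complete the processome before it is taken apart and a pre-40S particle leaves for the cytoplasm. Box C/D and H/ACA particles also guide the methylation and pseudouridylation of ribosomal RNA, and cells that prepare to grow and divide, such as stimulated lymphocytes, are known to raise ribosome production.

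Total counts per library ran from 23026619 to 60585587. The plasmablast libraries carried their labelled identity. Plasmablast markers (Jchain, Xbp1, Prdm1, Irf4, Sdc1) were summed as CPM (counts scaled to library size). The sum was 16396 to 16909 CPM in plasmablasts and at most 2684 elsewhere. Jchain made up most of it in plasmablasts, with a mean of 12186 CPM. Jchain, Xbp1, Prdm1 and Sdc1 were each higher in both plasmablast libraries than in any other library. Irf4 was instead highest at 3 h, at 2588 and 1952 CPM, and made up most of the 2684. Some markers of other cells were higher in naive libraries. The 8 T-cell markers summed to 68.1 to 72.0 CPM in naive cells against 12.2 to 39.9 at other stages, but Lck alone was at 59.8 and 64.1 CPM of this, while Cd3e was at 0.23 and 0.10 CPM and Cd3g was lower in naive cells (0.39 and 0.40 CPM) than in plasmablasts (1.02 and 0.68 CPM). In naive cells the 8 myeloid markers were at 123 to 279 CPM against at most 38.9, and the 6 erythroid markers that were matched at 146 to 197 CPM against at most 2.39. Lyz2, S100a8, S100a9 and Csf1r made up most of the myeloid sum in naive cells. Itgam and Adgre1 were instead highest in expanded cells. Itgam was at 24.3 and 21.8 CPM there, against 8.74 and 5.08 CPM in naive cells. Adgre1 was at 13.1 and 13.4 CPM, against 10.7 and 10.6 CPM. None of these markers was at 0 in naive cells. The part of such cells in the naive to 3 h and naive to plasmablast results was not tested.

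Levels are given as RPKM, reads scaled to exon length and to sequencing depth, with library sizes scaled by TMM, and can be compared between genes. Changes are log2 fold changes with their standard error (SE). A gene was called, and is said to have risen or fallen, where edgeR's glmTreat gave an adjusted p under 0.05 against a fold change of 1.5 over all 12750 genes tested. Except for the quasi-likelihood F-test, counts under other tests, scalings or sets of libraries are given without a share of all genes. Of the processome genes, 46 are autosomal. Dkc1 and Utp14a lie on the X chromosome, which the study left out, and were taken from a second fit of 13190 genes that kept it. How the authors' counting treated strand is not given in the sources used here. In the GENCODE annotation 17 of the 48 share exon bases with another gene, all of them on the opposite strand, and reads of such stretches cannot be told apart without strand. The shares of exon bases were largest for Ddx49 with Homer3 (40.9%), Tsr1 with Srr (34.2%), Tbl3 with Noxo1 (25.8%), Utp14a with 9530027J09Rik (18.9%), Nol11 with Gm11715 (13.8%), Rrp7a with Serhl (13.7%), Utp23 with Gm34678 (11.5%) and Bysl with Ccnd3 (9.37%).

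Most processome genes rose within 3 h of activation. Their median TMM-scaled level was then lower stage by stage until, in plasmablasts, it lay near that of naive cells. The 48 genes took 0.31% of all counts in both naive libraries, 0.93% and 1.03% after 3 h, 0.97% and 0.95% after 10 h, 0.71% and 0.82% after 33 h, 0.56% and 0.55% in expanded cells, and 0.26% in both plasmablast libraries. These are bulk libraries, in which fewer cells that express a gene and less RNA per cell cannot be told apart. Levels are relative to the RNA of each library, and no measure of total RNA per cell was available. The median gene of the set was at 25.7 RPKM in naive cells, 86.6 RPKM at 3 h and 23.6 RPKM in plasmablasts. By the mean of its 2 libraries, 37 genes were highest at 3 h, 9 after 10 h (Fbl, Dkc1, Gar1, Nop10, Tbl3, Utp14a, Utp20, Wdr46 and Rrp36) and 2 after 33 h (Imp3 and Emg1). When libraries were scaled by size alone, without TMM, 23 were highest at 3 h and 21 after 10 h. In 29 genes the mean level was lower at each successive stage after 3 h. The lowest stage was the plasmablast for 25 genes, the naive cell for 22 and the expanded cell for 1, Utp23. How many of all genes share these highest and lowest stages, or this stepwise order, was not counted. The highest levels at 3 h were those of Nop58, with 388 ± 33 RPKM (SD, n = 2), and Nhp2, with 295 ± 28 RPKM, and the highest UTP-A gene was Wdr43, with 147 ± 12 RPKM. The plot of levels by role shows the common peak at 3 h and the spread in plasmablasts.

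**Figure D1:**
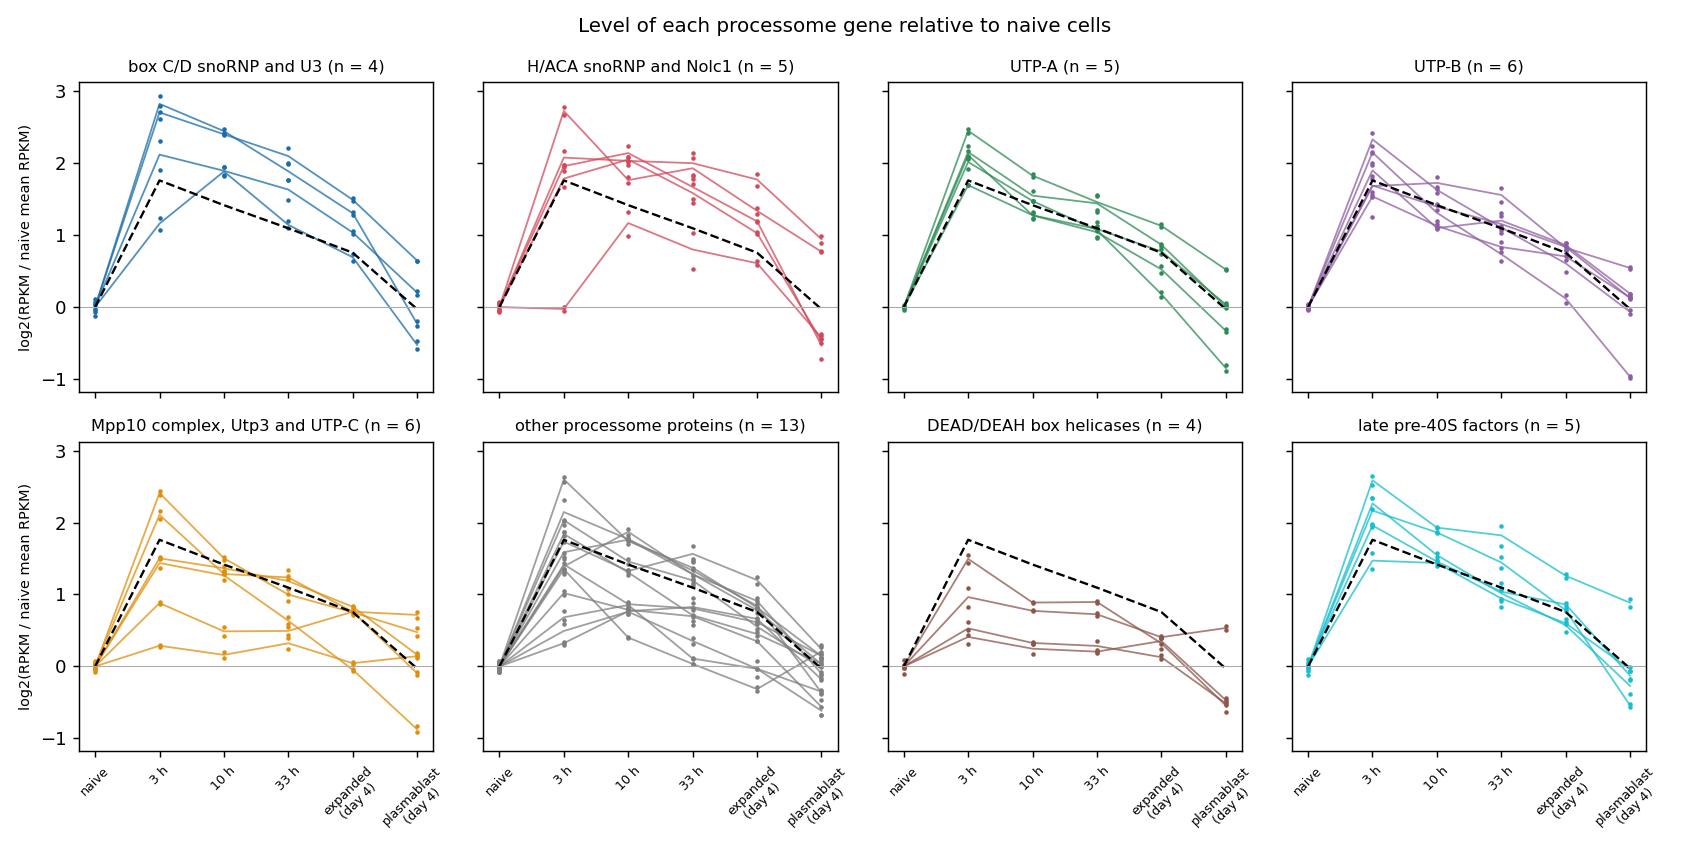
Level of each of the 48 processome genes by role group. The y axis gives log2 of RPKM over the naive mean of the gene, points are the 12 libraries, coloured lines join the means of 2 libraries per stage, and the dashed black line is the median of all 48 genes. Lines peak at 3 h for 37 genes, and the median in plasmablasts lies near the naive level at 0.

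The comparison of naive cells with cells at 3 h spans the first hours of LPS culture. Naive cells were sorted straight from splenocytes, whereas the 3 h cells were isolated by negative selection, dye-labelled, cultured and sorted as CD69+. No cells cultured without LPS were part of the series. Isolation and culture therefore cannot be told apart from LPS here or in the comparison of naive cells with plasmablasts. Of the 46 autosomal processome genes, 40 rose, against 21% of all genes tested, and 0 fell, against 24.3%. No gene of the set had an unadjusted p under 0.05 downwards by glmTreat, against 3371 of all 12750 genes, and DESeq2 also gave 40 up and 0 down. The median log2 fold change was 1.79, beside -0.031 over all genes. In 47 of the 48 genes both 3 h libraries lay above both naive libraries, an order found in 39.7% of all genes. The exception was Nop10.

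By role, 4 of 4 box C/D proteins rose, as did 3 of 4 autosomal H/ACA genes, 5 of 5 UTP-A, 6 of 6 UTP-B, 5 of 6 of the Mpp10 and UTP-C group, 10 of 12 other processome proteins, 2 of 4 helicases and 5 of 5 late factors. Rrp9, the protein specific to the U3 snoRNA particle, measured 22.9 and 24.1 RPKM in naive cells, 154 and 179 after 3 h, 131 and 125 after 10 h, 79.8 and 93.9 after 33 h, 59.0 and 57.1 in expanded cells, and 20.5 and 19.5 in plasmablasts. The naive and plasmablast libraries of Rrp9 were the lowest, and those of 3 h did not overlap with any other stage. Its log2 fold change at 3 h was 2.82 (SE 0.11, glmTreat adjusted p = 7.7e-10), the largest of the set. Nolc1, which escorts small nucleolar particles, changed by 2.72 (SE 0.10, glmTreat adjusted p = 6.9e-10). Nop58, a core protein of box C/D particles, measured 60.8 and 58.2 RPKM in naive cells and 365 and 411 RPKM at 3 h, a log2 fold change of 2.70 (SE 0.095, glmTreat adjusted p = 5e-10). Rcl1, a cyclase-like partner of the GTPase Bms1, changed by 2.60 (SE 0.091, glmTreat adjusted p = 5e-10). Bysl, which stays with the particle into the pre-40S stage, went from 11.2 and 11.9 RPKM to 66.3 and 72.2 RPKM, a change of 2.59 (SE 0.11, glmTreat adjusted p = 1.4e-09), and 9.37% of its exon bases are shared with Ccnd3. At the other end, 6 autosomal genes did not pass the test. Nop10, the smallest protein of the H/ACA particle, was at 57.7 and 60.8 RPKM in naive cells and at 59.4 and 56.98 RPKM at 3 h, and the groups overlapped. Its log2 fold change was -0.027 (95% interval -0.35 to 0.29). The log2 fold change was 0.29 (0.10 to 0.47) for Imp3, which joins U3 to the precursor, 0.32 (0.11 to 0.53) for Emg1, a methyltransferase of 18S ribosomal RNA, and 0.41 (0.22 to 0.60) and 0.53 (0.34 to 0.72) for the helicases Ddx52 and Ddx47. For the last gene not called, Rrp36, it was 0.68 (SE 0.11). Imp3, Emg1 and Ddx47 had the highest mean level over the 12 libraries in their role groups, and in naive cells they were at 88.2 ± 4.5, 104 ± 7.3 and 70.3 ± 1.1 RPKM (SD, n = 2). On the X chromosome, Dkc1, the pseudouridine synthase of the H/ACA particle, rose by 1.79 on the log2 scale (SE 0.11, glmTreat adjusted p = 9.7e-08), whereas Utp14a, which activates the helicase Dhx37, was at 0.50 (SE 0.11, glmTreat adjusted p = 0.77). The replicates at 3 h differed more than at other stages: the SD over the set of the log2 ratio of the 2 libraries was 0.18, against 0.080 to 0.10 elsewhere, and Tbl3 of UTP-B was at 66.1 and 111 RPKM.

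**Figure D2:**
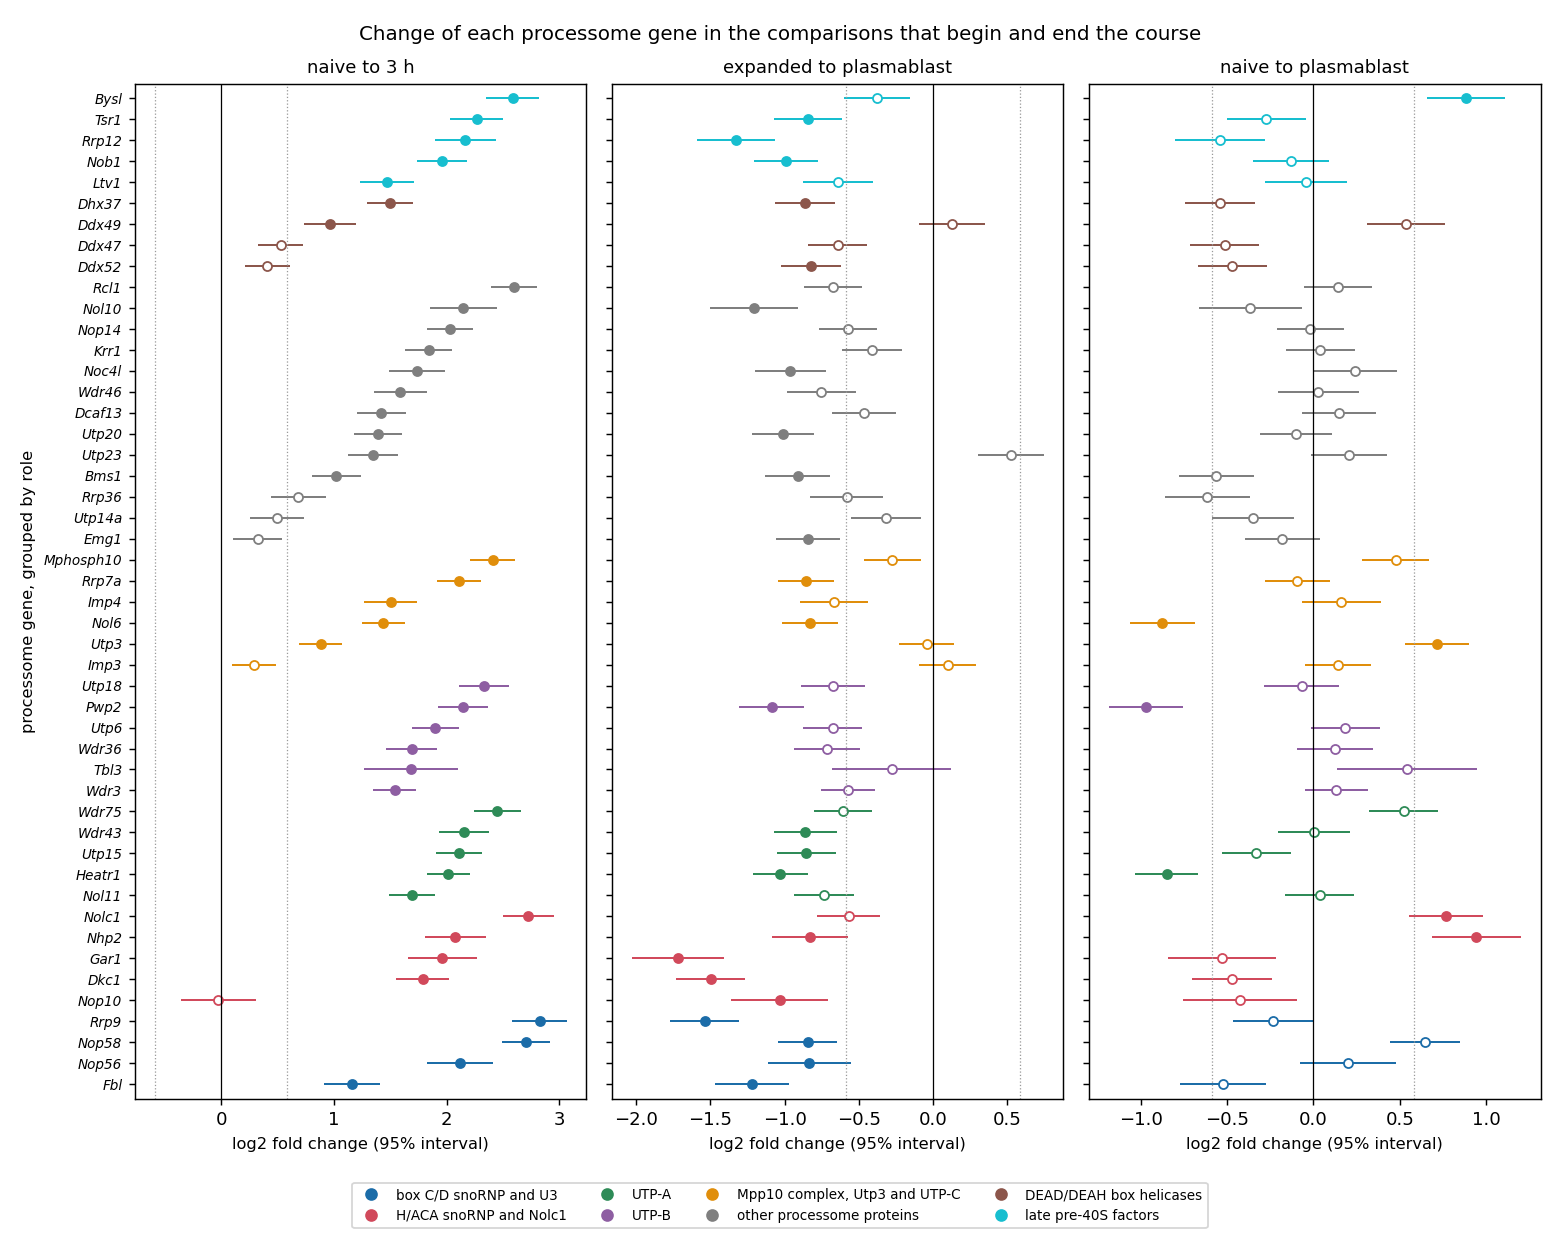
Log2 fold change of the 48 processome genes with 95% intervals (x axes) for naive to 3 h, expanded to plasmablast and naive to plasmablast, with genes on the y axis coloured by role. Filled points were called by glmTreat, dotted lines mark a fold change of 1.5 in either direction, and each panel has its own x scale. At 3 h the points span -0.027 to 2.82, and from expanded cells to plasmablasts -1.72 to 0.52.

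Since the genes moved together at 3 h, their promoters were read for short motifs. RefSeq promoter windows of GRCm38.p6, from 250 bases before to 50 after the start, were matched for 40 of the 48 genes, and a motif was counted on either strand. CACGTG, the E-box bound by Myc and Max, lay in the window of 9 of 40 genes (22.5%), against 8.09% of all genes with a window and 11.7% of those tested here. The ETS motif CCGGAAG was found in 19 of 40 (47.5%), against 9.93% of all and 20.2% of tested genes. The GC box GGGCGG was in 65% of the set, against 38.2% and 67.2%, and TATAAA in 7.5%, against 15.7% and 9.03%. The 9 genes with CACGTG had a median log2 fold change at 3 h of 1.69, and the 29 autosomal genes of the set without it one of 1.96. These matches are a description of the windows. The 250 bases before the start, 5′ to 3′ along the gene, are shown for 4 genes. CACGTG and CCGGAAG are in capitals where they occur. These genes were picked for their course or their motifs, and a link between motif and course was not tested. Nolc1 (chr19:46075597-46075846, plus strand) peaked early, Heatr1 (chr13:12395125-12395374, plus strand) was below its naive level in plasmablasts, Nop10 (chr2:112261676-112261925, plus strand) had not risen at 3 h, and Utp18 (chr11:93885767-93886016, minus strand) holds both motifs.
Nolc1: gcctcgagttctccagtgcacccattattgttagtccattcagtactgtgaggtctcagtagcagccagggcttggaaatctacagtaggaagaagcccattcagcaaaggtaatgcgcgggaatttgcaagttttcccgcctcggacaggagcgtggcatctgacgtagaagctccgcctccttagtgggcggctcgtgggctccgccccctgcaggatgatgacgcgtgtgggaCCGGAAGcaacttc
Heatr1: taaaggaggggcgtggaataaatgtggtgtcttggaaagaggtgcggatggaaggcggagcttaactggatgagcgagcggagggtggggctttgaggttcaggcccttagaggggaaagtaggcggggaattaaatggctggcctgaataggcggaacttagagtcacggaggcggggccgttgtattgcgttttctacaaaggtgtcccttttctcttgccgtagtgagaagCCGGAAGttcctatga
Nop10: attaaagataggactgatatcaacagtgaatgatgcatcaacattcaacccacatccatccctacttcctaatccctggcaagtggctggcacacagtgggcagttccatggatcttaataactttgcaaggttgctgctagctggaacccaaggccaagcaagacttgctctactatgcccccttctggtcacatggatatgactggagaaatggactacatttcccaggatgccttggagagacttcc
Utp18: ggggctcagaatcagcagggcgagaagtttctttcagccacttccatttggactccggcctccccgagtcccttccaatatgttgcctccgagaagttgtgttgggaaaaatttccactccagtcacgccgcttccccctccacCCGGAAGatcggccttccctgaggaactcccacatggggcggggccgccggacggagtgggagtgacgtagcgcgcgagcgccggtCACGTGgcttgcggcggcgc
The ETS motif starts 14 bases before the start of Nolc1 and 16 bases before that of Heatr1. In Utp18 the E-box starts 20 bases and an ETS motif 106 bases before the start, and a second ETS match in the window, 6 bases after the start, lies outside the stretch shown. Neither motif was found in the window of Nop10. Ltv1, Tsr1 and Wdr46 also held both motifs in their windows.

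From 3 to 10 h, 8 of the 46 genes fell, against 13.4% of all genes, a share near the background, and 1 rose, against 17.4%. The median log2 fold change was -0.39, beside 0.018 for all genes. The 8 early peakers, highest at 3 h and called lower at 10 h, were Nolc1, Utp23, Mphosph10, Rcl1, Utp15, Pwp2, Rrp7a and Utp6. They came from 5 of the 8 role groups, and none was a box C/D protein, a helicase or a late factor. Scaling by library size without TMM moves the median of all genes by 0.33 in this comparison, and then 0 of the 46 genes fell and 4 rose. By the quasi-likelihood F-test of a change of any size, 29 of 46 genes fell and 4 rose, against 30.2% and 32.1% of all genes. Those that fell by it included 4 of 5 late factors, 2 of 4 box C/D proteins and 1 of 4 helicases, while 1 box C/D protein rose. A difference between roles was not tested.

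Nolc1 (Entrez 70769, mm10 chr19:46075847-46085543) measured 40.1 and 39.1 RPKM in naive cells, 273 and 251 after 3 h, 131 and 138 after 10 h, 136 and 166 after 33 h, 97.4 and 103 in expanded cells, and 67.9 and 67.2 in plasmablasts. The 3 h libraries stood above all others, and the plasmablast libraries were still above the naive ones. It fell by 0.96 on the log2 scale from 3 to 10 h (SE 0.096, glmTreat adjusted p = 0.001). Mphosph10 (Entrez 67973, mm10 chr7:64376541-64392236), the scaffold that binds Imp3 and Imp4, measured 23.8 and 24.0 RPKM in naive cells, 129.7 and 124 after 3 h, 66.9 and 68.6 after 10 h, 44.9 and 50.6 after 33 h, 39.9 and 40.5 in expanded cells, and 34.4 and 32.0 in plasmablasts. Its level went down in steps with no overlap between neighbouring stages. Its log2 fold change from 3 to 10 h was -0.91 (SE 0.084, glmTreat adjusted p = 0.0013). Utp23, a processome protein of the early cleavage steps, was at 9.01 and 8.19 RPKM in naive cells, 22.0 and 21.9 after 3 h, 11.3 and 11.4 after 10 h, 8.83 and 8.79 after 33 h, 7.07 and 6.76 in expanded cells, and 9.34 and 10.5 in plasmablasts. At 33 h its libraries lay between those of naive cells, and 11.5% of its exon bases are shared with an antisense gene. Its change from 3 to 10 h was -0.95 (SE 0.097, glmTreat adjusted p = 0.0014).

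Pwp2 of UTP-B (Entrez 110816, mm10 chr10:78170909-78185171) was at 22.7 and 23.6 RPKM in naive cells, 102 and 103 after 3 h, 61.8 and 53.0 after 10 h, 36.2 and 40.8 after 33 h, 26.1 and 24.2 in expanded cells, and 11.7 and 12.0 in plasmablasts. Of the early peakers it ended lowest relative to its 3 h level, at 11.5%, whereas Utp23 ended at 45.3%. Rcl1 went from 145 and 153 RPKM at 3 h to 84.3 and 79.9 after 10 h, Utp15 of UTP-A from 62.7 and 58.2 to 33.1 and 34.6, Rrp7a of UTP-C from 129 and 119 to 70.0 and 70.3, and Utp6 of UTP-B from 76.1 and 84.1 to 46.6 and 45.3. With Pwp2 included, the 10 h mean of these 5 genes was 55.2% to 57.4% of the 3 h mean, and the log2 fold changes ran from -0.86 for Rcl1 to -0.80 for Utp6. In Rrp7a 13.7% of exon bases are shared with Serhl. Without replicate 2 of 10 h, Pwp2 (-0.73) and Utp6 (-0.78) were no longer called, and without replicate 2 of 3 h the call of Utp6 was lost as well (-0.75).

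**Figure D3:**
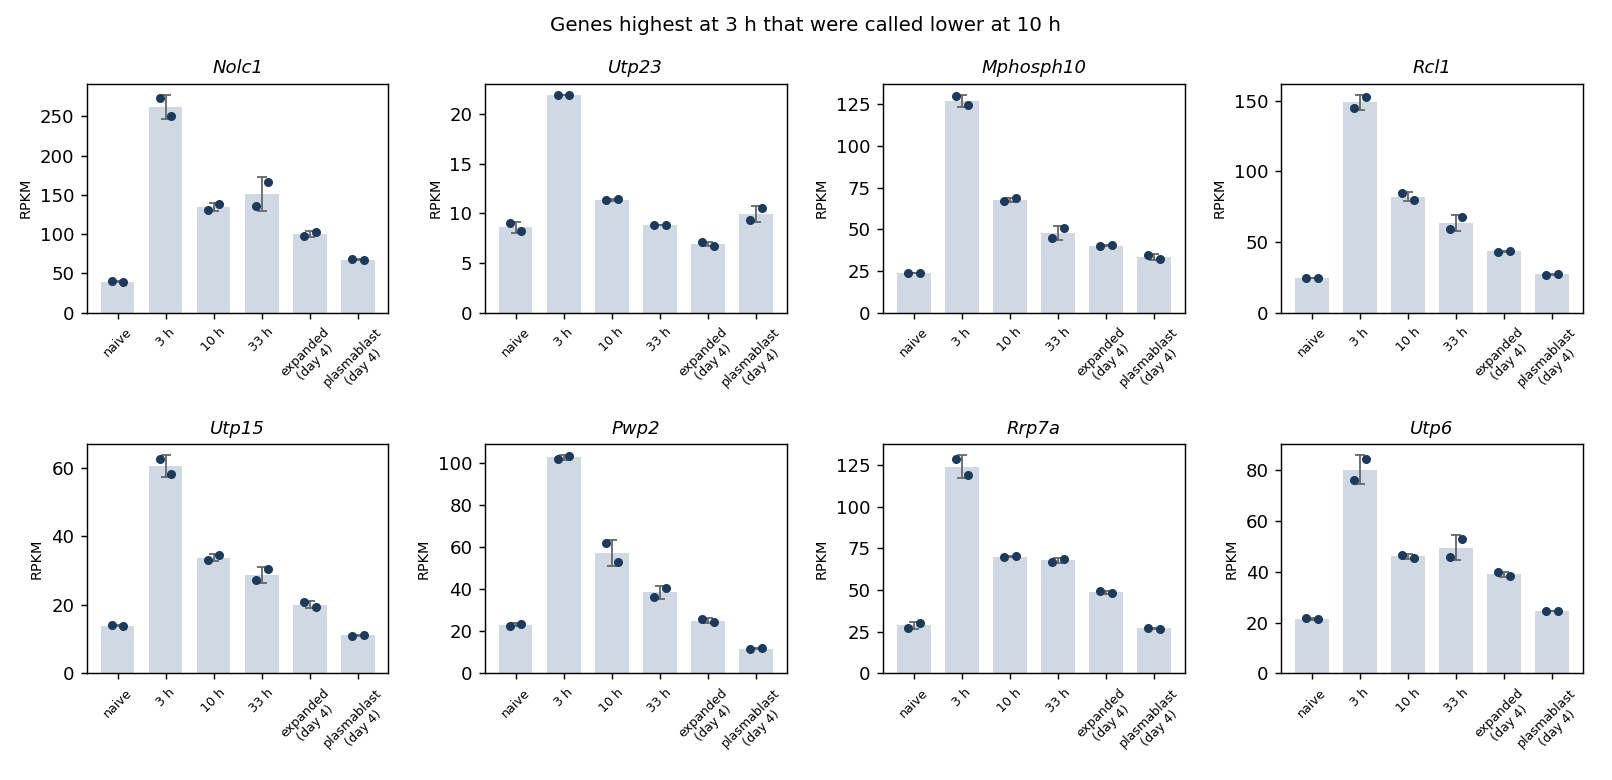
RPKM of the 8 early peakers by stage. Bars are means of 2 libraries, error bars their SD and points the libraries. In each panel the 3 h libraries stand highest, and the 10 h mean is 51.4% to 57.4% of the 3 h mean.

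Nop10 (Entrez 66181, mm10 chr2:112261926-112262898) was the gene that rose from 3 to 10 h. It measured 59.4 and 56.98 RPKM at 3 h, 148 and 118 after 10 h, 85.8 and 120.4 after 33 h, 91.9 and 88.7 in expanded cells, and 43.4 and 44.9 in plasmablasts. Its 10 h libraries did not overlap with those of 3 h, while 10 and 33 h did overlap. The log2 fold change was 1.20 (SE 0.15, glmTreat adjusted p = 0.00074). Without replicate 2 of 3 h, 2 genes of the set rose in this comparison. The other genes with a later maximum had smaller values in this comparison. Fbl, the methyltransferase of box C/D particles, was at 54.4 and 60.8 RPKM at 3 h and 90.9 and 99.5 RPKM at 10 h (log2 fold change 0.72, not called), and Utp20 at 23.1 and 26.8 RPKM and then 35.8 and 33.7 RPKM (0.48, not called). In the fit with the X chromosome, the values of Dkc1 and Utp14a were 0.26 and 0.27, neither called.

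Between 10 and 33 h, the last hours before division, no processome gene was called by glmTreat, against 10.1% of all genes upwards and 4.45% downwards. The median log2 fold change was -0.28. At an unadjusted p under 0.05, 2 genes were lower and 0 higher, against 993 and 1735 of all 12750 genes. DESeq2 called 0 of the set. By the F-test of any change, 24 of 46 genes fell and 0 rose, against 22.2% and 23.2% of all genes. Dkc1 was at -0.47 and Utp14a at -0.41, neither called.

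From 33 h to expanded cells, Heatr1 was called alone: 1 of 46 genes fell, against 3.66% of all genes, and 0 rose, against 6.94%. The median log2 fold change was -0.37. At an unadjusted p under 0.05, 2 genes were lower and 0 higher, against 879 and 1341 of all 12750 genes. DESeq2 called 1 of the set down and 0 up. Heatr1 (Entrez 217995, mm10 chr13:12395375-12438893), a UTP-A protein also tied to RNA polymerase I transcription, measured 30.5 and 31.2 RPKM in naive cells, 117 and 132 after 3 h, 86.0 and 85.3 after 10 h, 64.3 and 64.9 after 33 h, 35.8 and 34.0 in expanded cells, and 17.6 and 16.6 in plasmablasts. Its replicates lay close together at each stage from 10 h on, with no overlap between stages. The log2 fold change from 33 h was -0.89 (SE 0.081, glmTreat adjusted p = 0.0038). By the F-test of any change, 36 of 46 genes fell, against 21.2% of all genes, and 1 rose, against 18.5%. Utp3, also known as Sas10, was higher in both expanded libraries, at 99.1 and 104.7 RPKM, than at 33 h, at 81.3 and 88.1 RPKM. On the X chromosome, Dkc1 was at -0.56 and Utp14a at -0.39, neither called.

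Processome genes were at lower levels in plasmablasts than in the expanded cells of the same day. Of 46 genes, 23 fell, against 12.2% of all genes, and 0 rose, against 13.9%. The median log2 fold change was -0.79, beside -0.046 for all genes. At an unadjusted p under 0.05, 26 were lower and 0 higher, against 1956 and 2101 of all 12750 genes. DESeq2 gave 11 of the set down and 0 up. The F-test of any change gave 41 down and 1 up, against 29.7% and 27.2% of all genes. Both plasmablast libraries lay below both expanded libraries in 44 of the 48 genes, an order found in 43.9% of all genes. The number that fell was 14 without replicate 1 of the plasmablasts, and 39 under scaling by library size. Dkc1 fell as well in the fit that kept the X chromosome, so that 24 of the 48 genes were called lower in plasmablasts than in expanded cells. Such a call is not an absence of expression: Nhp2, among the 24, was at 138 and 129.9 RPKM in plasmablasts.

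By role, 4 of 4 box C/D proteins fell (Fbl, Nop56, Nop58 and Rrp9), 3 of 4 autosomal H/ACA genes (Nhp2, Nop10 and Gar1), 3 of 5 UTP-A (Heatr1, Utp15 and Wdr43), 1 of 6 UTP-B (Pwp2), 2 of 6 of the Mpp10 and UTP-C group (Nol6 and Rrp7a), 5 of 12 other proteins (Utp20, Nol10, Noc4l, Emg1 and Bms1), 2 of 4 helicases (Ddx52 and Dhx37) and 3 of 5 late factors (Tsr1, Nob1 and Rrp12). Gar1 (Entrez 68147, mm10 chr3:129824912-129831407), a protein of the H/ACA particle, measured 13.4 and 14.5 RPKM in naive cells, 53.5 and 54.9 after 3 h, 57.1 and 65.7 after 10 h, 39.4 and 49.2 after 33 h, 31.6 and 32.0 in expanded cells, and 8.46 and 10.8 in plasmablasts. The plasmablast libraries were below every other stage, naive cells included. Its log2 fold change from expanded cells was -1.72 (SE 0.14, glmTreat adjusted p = 5.8e-06). Rrp9 changed by -1.54 (SE 0.10, glmTreat adjusted p = 1.6e-06), from 59.0 and 57.1 RPKM to 20.5 and 19.5 RPKM. Dkc1 went from 61.1 and 62.1 RPKM to 22.3 and 21.3 RPKM, a change of -1.498 (SE 0.11, glmTreat adjusted p = 2.3e-06). All of these 3 are proteins of snoRNA particles. Rrp12, a protein of pre-40S export, went from 32.8 and 32.0 RPKM to 12.8 and 13.1 RPKM (log2 fold change -1.32, SE 0.12, glmTreat adjusted p = 3.4e-05). Fbl went from 43.1 and 40.2 RPKM to 17.2 and 18.6 RPKM (-1.22, SE 0.11, glmTreat adjusted p = 7.6e-05), and Nol10 from 18.2 and 16.7 RPKM to 7.47 and 7.67 RPKM (-1.21, SE 0.13, glmTreat adjusted p = 0.00033). For Pwp2 the change was -1.09 (SE 0.097, glmTreat adjusted p = 0.00015). None of these groups overlapped.

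At the upper end, Utp23, Ddx49, Imp3, Utp3, Mphosph10 and Tbl3 had the highest values and none was called. Utp23 was higher in both plasmablast libraries, with a log2 fold change of 0.52 (95% interval 0.31 to 0.74, glmTreat adjusted p = 0.88, F-test adjusted p = 0.00057). The helicase Ddx49 was at 39.5 and 38.7 RPKM in expanded cells and 41.8 and 43.6 RPKM in plasmablasts, a log2 fold change of 0.13 (-0.089 to 0.35), and it shares 40.9% of its exon bases with Homer3. Imp3 (Entrez 102462, mm10 chr9:56937500-56938398) was at 91.3 and 85.0 RPKM in naive cells, 107 and 109 after 3 h, 102 and 95.6 after 10 h, 105 and 116 after 33 h, 90.3 and 91.7 in expanded cells, and 95.9 and 98.8 in plasmablasts. Its means over the 6 stages stayed between 88.2 and 110.3 RPKM, and the log2 fold change from expanded cells was 0.098 (-0.087 to 0.28). Utp3 was at 99.1 and 104.7 RPKM in expanded cells and 96.3 and 101 RPKM in plasmablasts, with overlap between the groups and a log2 fold change of -0.044 (-0.22 to 0.13). The value was -0.28 (-0.46 to -0.091) for Mphosph10 and -0.28 (-0.68 to 0.12) for Tbl3, with 25.8% of its exon bases shared with Noxo1. Utp14a was at -0.32 (SE 0.11, glmTreat adjusted p = 1). With library size alone, Ddx49 was at -0.21 and Imp3 at -0.24, while the median of all genes moved by -0.34.

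The comparison of naive cells with plasmablasts asks which genes ended above or below where they began. Of the 46 genes, 4 rose (Nhp2, Bysl, Nolc1 and Utp3), against 26.6% of all genes, and 3 fell (Pwp2, Nol6 and Heatr1), against 23.4%, both shares below the background. The median log2 fold change was -0.0062. Of the 48 genes, 23 had a higher mean in plasmablasts and 25 a lower one. By the sign of the log2 fold change, 6474 of all 12750 genes were higher and 6265 lower. With library size alone, 0 rose and 11 fell. The F-test of any change gave 9 up and 15 down, against 38.2% and 35.9% of all genes, both below the background.

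Nolc1, Utp3 and Bysl rose over naive cells and were not called lower by glmTreat from expanded cells to plasmablasts, the definition of kept expression used here. For 2 of them this rests on the 1.5-fold threshold: both plasmablast libraries of Nolc1 and of Bysl lay below both expanded libraries, with log2 fold changes of -0.57 (F-test adjusted p = 0.00021) and -0.38 (F-test adjusted p = 0.0057). Utp3 (Entrez 65961, mm10 chr5:88554462-88556090), a protein of the processome core, measured 61.0 and 59.3 RPKM in naive cells, 109 and 112 after 3 h, 81.0 and 87.7 after 10 h, 81.3 and 88.1 after 33 h, 99.1 and 104.7 in expanded cells, and 96.3 and 101 in plasmablasts. Both plasmablast libraries were above both naive libraries and above those of 10 and 33 h. The log2 fold change from naive cells was 0.72 (SE 0.083, glmTreat adjusted p = 0.042). Bysl (Entrez 53414, mm10 chr17:47599331-47611492) was at 44.0 and 43.8 RPKM at 10 h, 36.8 and 44.7 after 33 h, 27.1 and 28.2 in expanded cells, and 20.4 and 22.1 in plasmablasts, from 11.2 and 11.9 RPKM in naive cells. Its plasmablast libraries lay above the naive ones and below all others, and the change from naive cells was 0.88 (SE 0.10, glmTreat adjusted p = 0.0031). Nolc1 changed by 0.77 (SE 0.096, glmTreat adjusted p = 0.023). The call of Nolc1 was lost without replicate 2 of the naive cells (0.75) or replicate 1 of the plasmablasts (0.77), and that of Utp3 without replicate 1 (0.73) or 2 (0.70) of the naive cells or replicate 2 of the plasmablasts (0.69). Without naive replicate 2, 2 of the 46 genes rose. Over all alternatives, Nolc1 lost its call in 5 and Utp3 in 8.

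Nhp2 (Entrez 52530, mm10 chr11:51619773-51623718), an RNA-binding protein of the H/ACA particle, combined a rise over naive cells with a fall from expanded cells. It measured 66.3 and 73.3 RPKM in naive cells, 275 and 314 after 3 h, 298 and 273 after 10 h, 249.2 and 309 after 33 h, 252 and 225 in expanded cells, and 138 and 129.9 in plasmablasts. From 3 h to expanded cells its stages overlapped with their neighbours, and the plasmablast libraries stood between naive and expanded cells. The log2 fold change from naive cells to plasmablasts was 0.94 (SE 0.12, glmTreat adjusted p = 0.0024).

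Pwp2 was the lowest against naive cells, with a log2 fold change of -0.97 (SE 0.097, glmTreat adjusted p = 0.00046). Nol6 (Entrez 230082, mm10 chr4:41114427-41124339), the large protein of UTP-C, was at 40.7 and 42.5 RPKM in naive cells, 107 and 118 after 3 h, 95.6 and 104 after 10 h, 62.3 and 66.8 after 33 h, 39.9 and 40.7 in expanded cells, and 22.0 and 23.3 in plasmablasts. In expanded cells it was close to the naive level, and its plasmablast libraries were below those of every other stage. The change from naive cells was -0.87 (SE 0.085, glmTreat adjusted p = 0.0013), and for Heatr1 it was -0.85 (SE 0.082, glmTreat adjusted p = 0.0018). Rrp36 was next, at -0.61 (SE 0.11, glmTreat adjusted p = 0.3), not called. The values of Dkc1 and Utp14a were -0.47 and -0.35, neither called.

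Within a complex the ratios of subunit levels differed between stages. In the H/ACA particle, Nop10 was at 0.87 and 0.83 of the RPKM of Nhp2 in the naive libraries, 0.22 and 0.18 after 3 h, 0.50 and 0.43 after 10 h, 0.34 and 0.39 after 33 h, 0.36 and 0.39 in expanded cells, and 0.31 and 0.35 in plasmablasts. The 3 h ratios were the lowest and did not overlap with other stages. The mean of the highest of the 5 genes in this role group, Nhp2, was 5.01 times that of the lowest, Gar1, in naive cells, 7.49 times in expanded cells and 13.9 times in plasmablasts. In the Mpp10 complex, Imp3 was at 3.84 and 3.55 times the RPKM of Mphosph10 in naive cells, 0.82 and 0.87 after 3 h, 1.52 and 1.39 after 10 h, 2.33 and 2.29 after 33 h, 2.26 in both expanded libraries, and 2.78 and 3.09 in plasmablasts. Imp3 over Imp4 was 3.67 and 3.23 in naive cells, 1.49 and 1.48 after 3 h and 1.51 and 1.48 after 10 h. It was 2.03 and 1.78 after 33 h, 1.98 and 2.02 in expanded cells, and 3.39 and 3.40 in plasmablasts. Unlike Imp3 over Mphosph10, its ratios of 3 and 10 h overlapped. Nop56 over Nop58, the paired core proteins of the box C/D particle, was 0.92 and 0.87 in naive cells and between 0.55 and 0.67 in the other 10 libraries. These ratios are of RNA levels per length and were not tested.

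**Figure D4:**
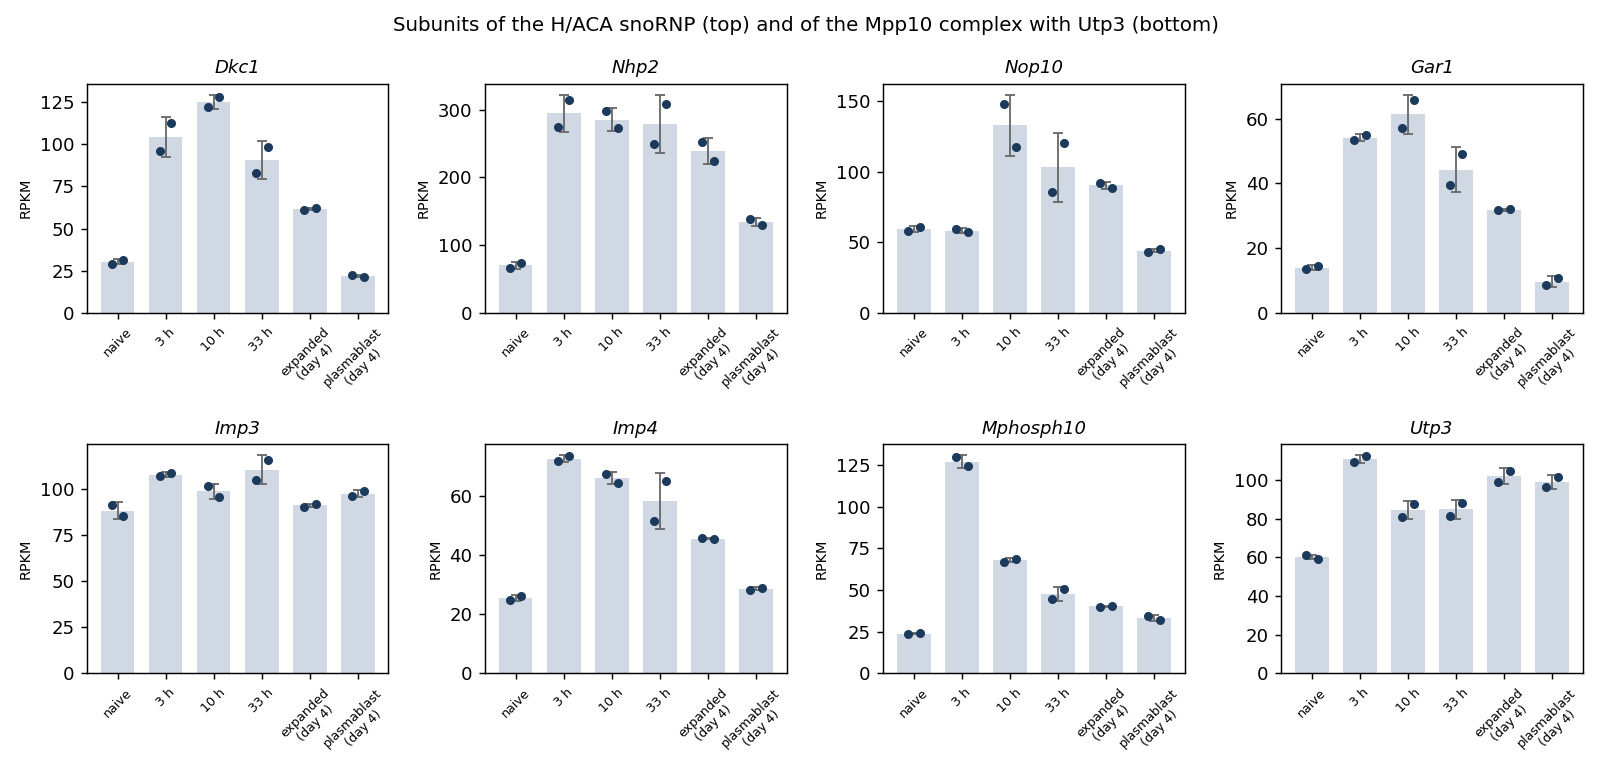
RPKM by stage of 4 H/ACA proteins (top) and of the 3 Mpp10 complex proteins with Utp3 (bottom). Bars are means of 2 libraries, error bars their SD and points the libraries. Nop10 is highest at 10 h rather than 3 h, and Imp3 stays between 88.2 and 110.3 RPKM while Mphosph10 peaks at 127 RPKM.

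In UTP-A, UTP-B and the late group, each gene rose at 3 h. Over UTP-A the log2 fold changes at 3 h ran from 1.69 for Nol11 to 2.45 for Wdr75, and Wdr43 had the highest mean level of the group. UTP-B ran from 1.54 for Wdr3 to 2.33 for Utp18, with Tbl3 at the highest mean level. In the late group they ran from 1.47 for Ltv1 to 2.59 for Bysl. Nob1, the nuclease of the last 18S cut, had the highest mean over the 12 libraries in this group, at 49.4 RPKM. Ltv1 was close at 49.3 RPKM and was the highest in naive cells, at 10 and 33 h and in plasmablasts. Tsr1 was the highest at 3 h. The other processome proteins ran from 0.32 for Emg1 to 2.60 for Rcl1. Between them lay Nol10 (2.15), Nop14 (2.03) and its partner Noc4l (1.74), Krr1 (1.84), Wdr46 (1.59), Dcaf13 (1.42), Utp20 (1.39), Utp23 (1.35) and the GTPase Bms1 (1.02), all called. The helicases ran from 0.41 for Ddx52 to 1.495 for Dhx37, the helicase that releases U3. From expanded cells to plasmablasts the late group spread from -1.32 for Rrp12 to -0.38 for Bysl, and UTP-B from -1.09 for Pwp2 to -0.28 for Tbl3.

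A further list of 28 ribosome biogenesis factors outside the set, most of them tied to the small subunit, was measured in the same libraries. Among them were Utp4, Pno1 and the Riok kinases. Of its 27 autosomal genes 25 rose at 3 h, against 21% of all genes, with a median log2 fold change of 1.52, and 0 fell. From 3 to 10 h 5 fell, against 13.4%, and 0 rose. From 10 to 33 h 0 were called by glmTreat, while the F-test gave 1 up and 8 down, against 23.2% and 22.2%. From 33 h to expanded cells 1 fell, against 3.66%, and 0 rose. In the directions with a count of 0, 0 genes of this list also had an unadjusted p under 0.05 by glmTreat. From expanded cells to plasmablasts 9 fell, against 12.2%, with a median of -0.65, and 0 rose. Against naive cells 1 rose and 1 fell in plasmablasts, below the 26.6% and 23.4% of all genes. This list was not compared with the processome genes by a test.

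The counts depend on how libraries were scaled. A scaling shifts all genes of a comparison by nearly the same amount. The differences from other genes could therefore hardly move, and their likeness below is no check of the result. With library size alone the median of all genes moved by -0.21 from naive cells to 3 h, 0.33 from 3 to 10 h, -0.34 from expanded cells to plasmablasts and -0.28 from naive cells to plasmablasts. The median of the processome genes less that of all genes was 1.82 after 3 h under TMM, DESeq2 size factors and library size alone. From 3 to 10 h this difference was -0.40, -0.43 and -0.41, and from expanded cells to plasmablasts it was -0.74 under each.

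**Figure D5:**
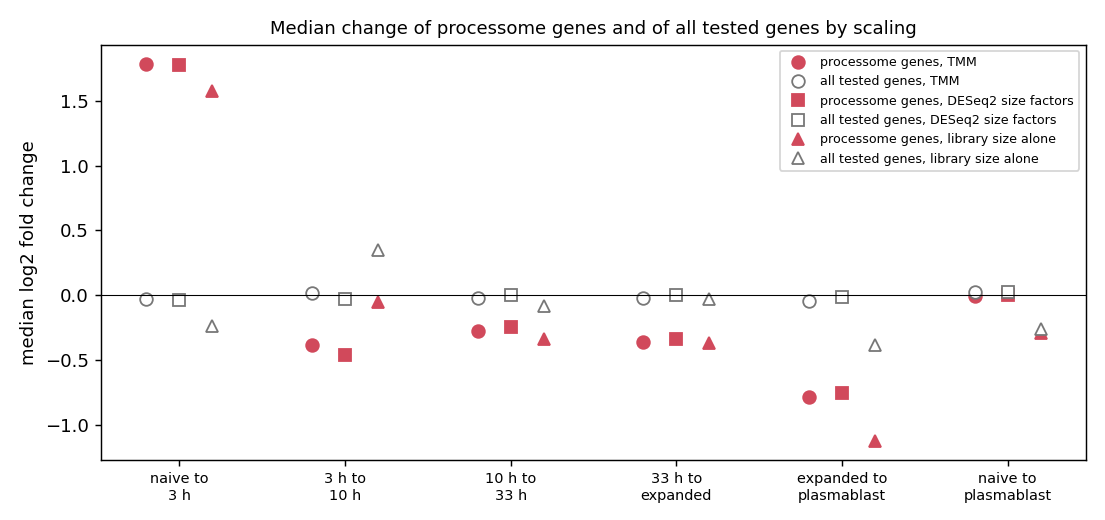
Median log2 fold change (y axis) of the 46 autosomal processome genes (filled) and of all 12750 tested genes (open) in the 6 comparisons (x axis) under TMM, DESeq2 size factors and library size alone. Both medians move together with the scaling, as from expanded cells to plasmablasts, where the processome median is -0.79, -0.76 and -1.13.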

How the data were processed

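RNA-Seq was analysed in 12 libraries, 2 biological replicates of each of 6 stages. The authors prepared TruSeq libraries from polyA RNA, sequenced them as paired-end reads on a NextSeq, aligned them to mm10 with Rsubread 1.28.0 and obtained gene counts by featureCounts with its inbuilt Entrez genes; CASAVA 1.8.2 is named in the submitters' processing notes. The deposited values are these raw counts per gene, without normalization, and each of the 12 sample files repeated its column of the series table. How strand and reads with several matches were treated is not given in the sources used here.

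After the study's methods, 1904 unmatched IDs, 1279 X and Y genes, 247 variable immunoglobulin segments, 33 ribosomal RNA and 15 mitochondrial genes were removed, and filterByExpr kept 12750 of 23701 genes. The 2 genes of the set on the X chromosome were taken from a fit that kept these genes. R 4.3.3 was used with edgeR 4.0.16 (TMM, robust quasi-likelihood fit of all 12 libraries in a one-way layout, glmTreat against 1.5-fold, Benjamini-Hochberg at 0.05), limma 3.58.1 and DESeq2 1.42.0. RPKM were computed from counts and deposited exon lengths with TMM-scaled library sizes, CPM from total counts. On simulated counts for expanded cells and plasmablasts (12301 genes, 200 of them changed), 76% of changed genes were recovered and 0 unchanged genes called. The changes put in were 2-fold or more and all other genes were held level. The simulation therefore does not show how changes nearer to 1.5-fold are recovered. An exact permutation of 2 against 2 libraries cannot give p under 0.333, so single genes rest on the fit. The labels do not say whether replicates came from separate mice, and p-values measure the spread between these libraries. Alternatives were other scalings, filters, gene removal, tests, a replicate block and each library left out.

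The genes of the set, the lists and the tests were chosen with earlier results of these data known. Named with values were the early peakers, the 5 largest and smallest changes at 3 h, the 6 lowest and highest from expanded cells to plasmablasts, genes called or among the 4 lowest against naive cells, X-linked genes, the highest level in each role, and the largest called changes elsewhere. Others named in ranges, ratios or plots were chosen after their values were seen. Promoters are from RefSeq and exon overlaps from GENCODE. The summed B-cell markers are not reported here.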

Additional observations from a re-analysis of the deposited data

How the results depend on the processing

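Of 612 values of named genes under alternatives, 574 kept direction and call, 26 lost a call, 8 gained one and 4 changed sign. The 4 were close to 0: with library size alone, Ddx49 (-0.21) and Imp3 (-0.24) from expanded cells to plasmablasts, Nop10 from naive cells to 3 h without naive replicate 2 (0.012, down to -0.065 without replicate 1), and Utp3 from expanded cells to plasmablasts without plasmablast replicate 1 (0.019, down to -0.088 without expanded replicate 1). With library size alone, from 3 to 10 h 4 processome genes rose and 0 fell, 39 fell from expanded cells to plasmablasts, 0 rose and 11 fell from naive cells to plasmablasts, and 23 and 21 genes were highest at 3 and 10 h. These follow the shift of all genes given above. The F-test of any change asks for no minimum fold and, beside the shares of all genes given above, gave 4 up and 29 down from 3 to 10 h, 24 down from 10 to 33 h, 1 up and 36 down from 33 h to expanded cells, 1 up and 41 down from expanded cells to plasmablasts, and 9 up and 15 down from naive cells to plasmablasts. The DESeq2 Wald test gave 11 down from expanded cells to plasmablasts and 2 up from naive cells to plasmablasts, where no filter on low counts also gave 2. The cause was not tested. Leaving out a library in turn gave 1 to 2 up and 6 to 9 down from 3 to 10 h, 14 to 21 down from expanded cells to plasmablasts, and 2 to 3 up from naive cells to plasmablasts, and 40 to 41 up at 3 h. A lone library is then assumed to vary like the other stages.

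No pairing by replicate number was seen: deviations of same-numbered libraries from their stage means correlated at -0.14 to 0.08 over 15 pairs of stages. With 2 libraries per stage such correlations cannot exclude a shared mouse or culture. A replicate block gave 24 genes down from expanded cells to plasmablasts and the same counts as without it elsewhere. Each stage has 2 libraries, which limits the precision of the spread, and each gene of the set at least 254 counts in each library.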
